A study of Homo sapiens with 24 samples.

Results

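The enzymes that write, copy and remove DNA methylation were followed at the RNA level in human embryonic stem cells. The 9 genes were DNMT1, DNMT3A, DNMT3B, DNMT3L, UHRF1, TET1, TET2, TET3 and TDG. They share a known function, but were chosen with earlier results of these data known. All probe sets annotated to exactly 1 of these symbols were taken, which gave 17 of the 54675 probe sets on the array, for 9 of the 19775 genes that have a probe set of their own. A probe set is a group of short probes against 1 transcript region.

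DNA methylation in mammals sits mainly on cytosines that precede a guanine. After replication UHRF1 binds sites methylated on 1 strand and brings in DNMT1, which copies the mark to the new strand. DNMT3A and DNMT3B place the mark on unmethylated sites, and DNMT3L, which has no catalytic activity, stimulates both. TET1, TET2 and TET3 oxidise methylcytosine with 2-oxoglutarate as a co-substrate, and TDG cuts out the most oxidised bases so that base excision repair can restore cytosine. Human pluripotent cells are known for high DNMT3B and for strong de novo methylation activity.

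The study used 3 established lines, H1, H9 and HSF1, on 24 Affymetrix U133 Plus 2.0 arrays in 8 groups of 3. The first 12 arrays held 1 array per line in each of 4 groups: feeder-supported cells with the MCT1 inhibitor, feeder-supported cells with DMSO, feeder-free cells with the MCT1 inhibitor, and feeder-free cells with DMSO. Feeder cells were mouse embryonic fibroblasts, and the inhibitor was AZD3965 at 250 nM for 5 days, which blocks the lactate transporter MCT1. The other 12 arrays were all feeder-free: H9 in medium conditioned by the fibroblasts, H9 in unconditioned medium, HSF1 in conditioned medium and HSF1 in unconditioned medium, with 3 biological replicates each. How long cells stayed in conditioned medium is not settled: sample labels state 5 days, the design text 24 hours. A p-value of the first 12 arrays rests on how far the 3 lines moved alike over all 4 groups, with no repeat within a line. A p-value of the other 12 rests on the spread between replicates, taken over both lines and both media. Each set of 12 shares 1 estimate of the spread per probe set, so scatter in 1 group widens the SE of every comparison in that set. A high p-value therefore need not mean that the arrays of that comparison disagreed. All levels below are log2 values after RMA, all differences are on the log2 scale, and a change was called at a limma adjusted p under 0.05 over all probe sets tested. Levels of different probe sets are not compared, because probes differ in brightness.

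The arrays carried stem cell RNA by their markers: the mean of 9 pluripotency markers was 11.20 to 11.86 on the 6 feeder-supported arrays and 11.97 to 12.14 on the 6 feeder-free arrays beside them. The 2 feeder-supported HSF1 arrays stood apart, with r = 0.860 to 0.961 to the other 22 arrays, against 0.948 to 0.998 among those 22. Feeder-supported arrays spanned a narrower range, with an interquartile range of 2.45 to 2.85 against 3.08 to 3.30 on the feeder-free arrays of the same experiment. The 3′ minus 5′ difference of the ACTB control probe sets, which rises as RNA degrades, was -0.31 to 1.19 on feeder-supported arrays and 0.47 to 1.17 on those feeder-free arrays. It was 1.07 on replicate 1 of H9 in unconditioned medium but 3.25 and 2.89 on replicates 2 and 3.

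The promoters of 4 of these genes are shown because 3 of them, DNMT1, UHRF1 and TET1, were lower together on feeder-supported arrays, while DNMT3B, the de novo enzyme typical of these cells, was shown for contrast. Each run is the 250 bases before the most upstream RefSeq start on GRCh38.p14, read 5′ to 3′ on the gene's strand, with CG dinucleotides, the sites that these enzymes act on, in capitals.
DNMT1, chr19:10194954-10195203, minus strand: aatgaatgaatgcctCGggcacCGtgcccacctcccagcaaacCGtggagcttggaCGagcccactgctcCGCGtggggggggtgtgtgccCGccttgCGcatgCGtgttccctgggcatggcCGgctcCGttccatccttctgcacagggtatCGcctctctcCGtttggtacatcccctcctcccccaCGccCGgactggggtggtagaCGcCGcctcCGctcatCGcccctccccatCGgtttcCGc
UHRF1, chr19:4909251-4909500, plus strand: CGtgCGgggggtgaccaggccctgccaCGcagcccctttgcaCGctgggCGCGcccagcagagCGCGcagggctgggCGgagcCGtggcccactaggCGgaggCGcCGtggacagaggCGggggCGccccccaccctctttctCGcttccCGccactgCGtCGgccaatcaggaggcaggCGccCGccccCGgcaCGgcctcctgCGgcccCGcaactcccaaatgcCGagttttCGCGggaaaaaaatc
TET1, chr10:68560087-68560336, plus strand: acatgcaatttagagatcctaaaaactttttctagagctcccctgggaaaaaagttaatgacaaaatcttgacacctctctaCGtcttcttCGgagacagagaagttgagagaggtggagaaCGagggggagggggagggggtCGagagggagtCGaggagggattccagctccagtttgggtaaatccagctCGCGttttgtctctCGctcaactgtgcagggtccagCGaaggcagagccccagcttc
DNMT3B, chr20:32779602-32779851, plus strand: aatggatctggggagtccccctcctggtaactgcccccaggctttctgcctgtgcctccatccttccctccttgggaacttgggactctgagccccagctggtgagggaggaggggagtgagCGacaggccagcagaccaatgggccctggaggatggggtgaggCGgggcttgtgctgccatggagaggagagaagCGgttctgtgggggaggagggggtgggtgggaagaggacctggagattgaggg
These windows hold 21 CG sites in DNMT1, 28 in UHRF1, 9 in TET1 and 3 in DNMT3B, against a median of 11 over all 35116 RefSeq windows of that length. RefSeq windows were at hand for 8 of the 9 genes, DNMT3L being the other. The motif TTTNNCGC was searched on both strands, N being any base. It is a looser form of the E2F type found at many S phase genes, so a match need not fit that type. It occurs in 2 of the 19 windows of these genes, both of UHRF1, and in 5.92% of all windows; in the UHRF1 window above its first match starts at base 139. A match is a run of letters and not a measured binding site.

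Most of the enzymes were well above the middle of the array, whose medians were 6.09 to 6.35. Leading probe sets, those with the highest mean of a gene, averaged 13.4 for DNMT3B, 11.1 for DNMT3A, 10.9 for TET1, 10.9 for TDG, 10.7 for DNMT1, 10.1 for UHRF1 and 9.69 for TET3. DNMT3L, at 5.29 to 6.62 over the 24 arrays, and TET2, at 5.50 to 6.81, lay around or below the array medians, where background limits the value. Both other TET2 probe sets averaged under the filter of 5 and were not tested, which left 15 tested probe sets of the 17 in every comparison.

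Probe sets of 1 gene did not always move together. Over the 24 arrays, which share lines and culture systems, the 2 TET1 probe sets correlated at r = 0.876 and the 2 TDG probe sets at r = 0.811. The first DNMT3A probe set (222640_at) correlated at 0.649 with 218457_s_at and at -0.127 with 244428_at. For TET3, 235542_at correlated at 0.326 with 214754_at and at 0.512 with 1554641_a_at. Values below therefore name the probe set where a gene has several.

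**Figure D1:**
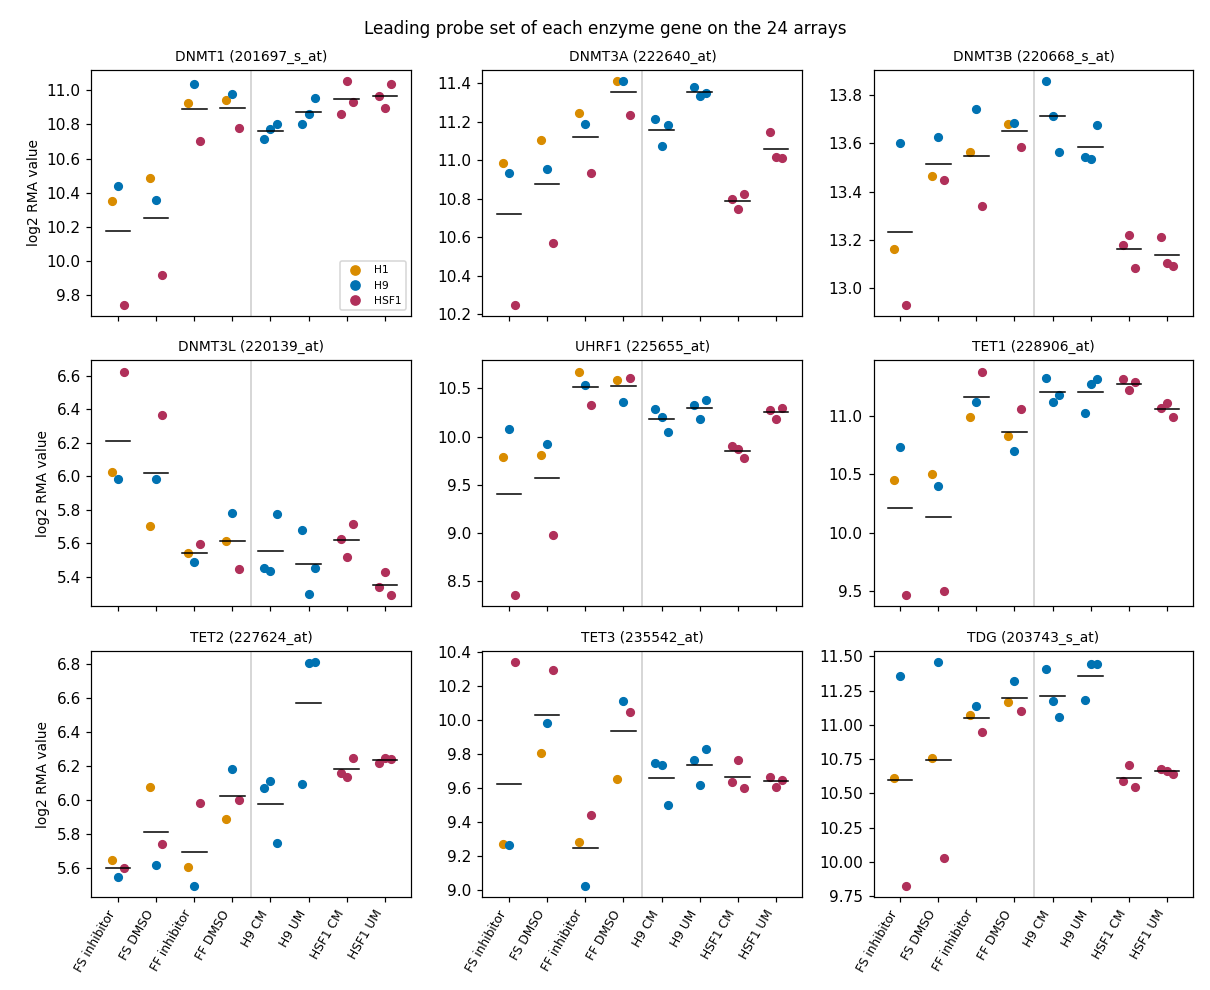
Log2 RMA value (vertical axis) of the leading probe set of each of the 9 genes on all 24 arrays, by group (FS, feeder-supported; FF, feeder-free; CM and UM, conditioned and unconditioned medium); points are arrays coloured by line, bars are group means of 3. The 6 feeder-supported DNMT1 values lie at 9.74 to 10.49, all below the 18 feeder-free values of 10.70 to 11.06.

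The first comparison asks whether growth on feeders goes with another level of these enzymes. With DMSO, feeder-supported arrays were lower in DNMT1, UHRF1, DNMT3A and TET1 and higher in 1 probe set of TET3. In all 5 of 15 tested probe sets were called, 4 lower and 1 higher. Over all probe sets 39.4% were called, 23.8% lower and 15.6% higher, so the share of enzymes called was not above that of the array. Probe sets with a mean above 9 had a median difference of -0.50 and 32.1% were lower; of the 8 member probe sets in that class 3 were lower.

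DNMT1 and UHRF1, the maintenance enzymes, were lower on feeders, where bright probe sets were often lower. Over all probe sets with a mean above 9, the class of both genes, the DMSO median was -0.50 and 32.1% were lower. DNMT1 measured 10.49, 10.36 and 9.92 in feeder-supported H1, H9 and HSF1 with DMSO, against 10.94, 10.98 and 10.78 in feeder-free cells of the same lines. The groups did not overlap, and DNMT1 was 1.56-fold lower (-0.65, SE 0.18, adjusted p = 0.0188). UHRF1 measured 9.81, 9.92 and 8.98 in feeder-supported cells, against 10.59, 10.36 and 10.61 in feeder-free cells. Again no value overlapped, and the fold was 1.93 (-0.95, SE 0.31, adjusted p = 0.0331). HSF1 gave the lowest UHRF1 difference, -1.63, against -0.78 in H1 and -0.44 in H9. The DNMT1 and UHRF1 calls were each lost in 5 of 14 alternative fits.

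With the inhibitor in both arms, the same enzymes were again lower on feeders. DNMT1 measured 10.35, 10.44 and 9.74 in feeder-supported cells, against 10.93, 11.04 and 10.70 in feeder-free cells (-0.71, SE 0.18, adjusted p = 0.0111). UHRF1 measured 9.78, 10.08 and 8.35 in feeder-supported cells, against 10.67, 10.54 and 10.33 in feeder-free cells (-1.11, SE 0.31, adjusted p = 0.0169). These DNMT1 and UHRF1 calls were lost in 4 and 3 of 14 alternative fits. Under the inhibitor 6 of 15 enzyme probe sets were called, 5 lower and 1 higher, against 46.8% of all probe sets, 26.6% lower and 20.2% higher. Probe sets with a mean above 9 had a median of -0.515 and 38.9% were lower. Of the 8 member probe sets in that class 4 were lower. Both culture comparisons use different arrays of the same 3 lines.

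Among the de novo enzymes the differences were smaller. DNMT3A (222640_at) measured 11.11, 10.95 and 10.57 in feeder-supported cells with DMSO, against 11.41, 11.41 and 11.24 in feeder-free cells, a fall of 0.48 (SE 0.17, adjusted p = 0.0415). Under the inhibitor its difference was -0.40 (SE 0.17, adjusted p = 0.0640), and neither of the other DNMT3A probe sets was called in either comparison. DNMT3B stayed within a narrow band, at 13.47, 13.63 and 13.45 in feeder-supported cells with DMSO, against 13.68, 13.69 and 13.59 in feeder-free cells (-0.14, SE 0.11, adjusted p = 0.313). With the inhibitor DNMT3B measured 13.16, 13.60 and 12.93 in feeder-supported cells, against 13.56, 13.74 and 13.34 in feeder-free cells. The groups overlapped, but each line was lower on feeders and the change was called (-0.32, SE 0.11, adjusted p = 0.0358).

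DNMT3L, the stimulator without catalytic activity, ran the other way. It measured 6.02, 5.98 and 6.62 in feeder-supported cells with the inhibitor, against 5.54, 5.49 and 5.60 in feeder-free cells (0.67, SE 0.20, adjusted p = 0.0205). With DMSO it was higher by 0.40 (SE 0.20, adjusted p = 0.109), in 3 of 3 lines. These levels straddle the array medians, and over all probe sets with a mean of 5 to 7 the median was 0.32 in the inhibitor arms and 0.28 in the DMSO arms.

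TET1, an oxidising enzyme that is prominent in pluripotent cells, was lower on feeders in 3 of 3 lines in both of its probe sets. 214862_x_at measured 8.13, 7.46 and 6.82 in feeder-supported cells with DMSO, against 9.01, 8.55 and 9.24 in feeder-free cells, a 2.76-fold fall (-1.46, SE 0.32, adjusted p = 0.00909). The leading probe set 228906_at measured 10.50, 10.39 and 9.50 in feeder-supported cells, against 10.83, 10.70 and 11.06 in feeder-free cells. It did not overlap between groups, yet it missed the threshold with DMSO (-0.73, SE 0.31, adjusted p = 0.0741), the HSF1 difference being -1.56 against -0.33 in H1 and -0.30 in H9. With the inhibitor both TET1 probe sets were called, at -0.95 (SE 0.31, adjusted p = 0.0284) for 228906_at and -1.25 (SE 0.32, adjusted p = 0.0123) for 214862_x_at.

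TET2 227624_at was not called by culture system (-0.10 with the inhibitor and -0.21 with DMSO, adjusted p = 0.665 and 0.340). TET2 1569385_s_at, too dim to be tested, was higher on feeders in 3 of 3 lines, by 0.72 with the inhibitor and 0.58 with DMSO, without overlap in the inhibitor arms. TET3 gave mixed values: 1554641_a_at measured 6.94, 7.26 and 7.95 in feeder-supported cells with DMSO, against 6.59, 6.82 and 6.56 in feeder-free cells (0.73, SE 0.24, adjusted p = 0.0331). This TET3 call was lost in 6 of 12 alternatives, among them the omission of any 1 line, and with the inhibitor the difference was 0.49 (adjusted p = 0.101). With DMSO the leading TET3 probe set 235542_at differed by 0.09 (SE 0.24, adjusted p = 0.755) and 214754_at by -0.38 (SE 0.16, adjusted p = 0.0755), so the TET3 probe sets disagreed in sign. TDG (203743_s_at) measured 10.76, 11.46 and 10.03 in feeder-supported cells with DMSO, against 11.17, 11.32 and 11.10 in feeder-free cells (-0.45, SE 0.26, adjusted p = 0.166). H9 was the line with higher TDG on feeders, and HSF1 the line with the lowest value.

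**Figure D2:**
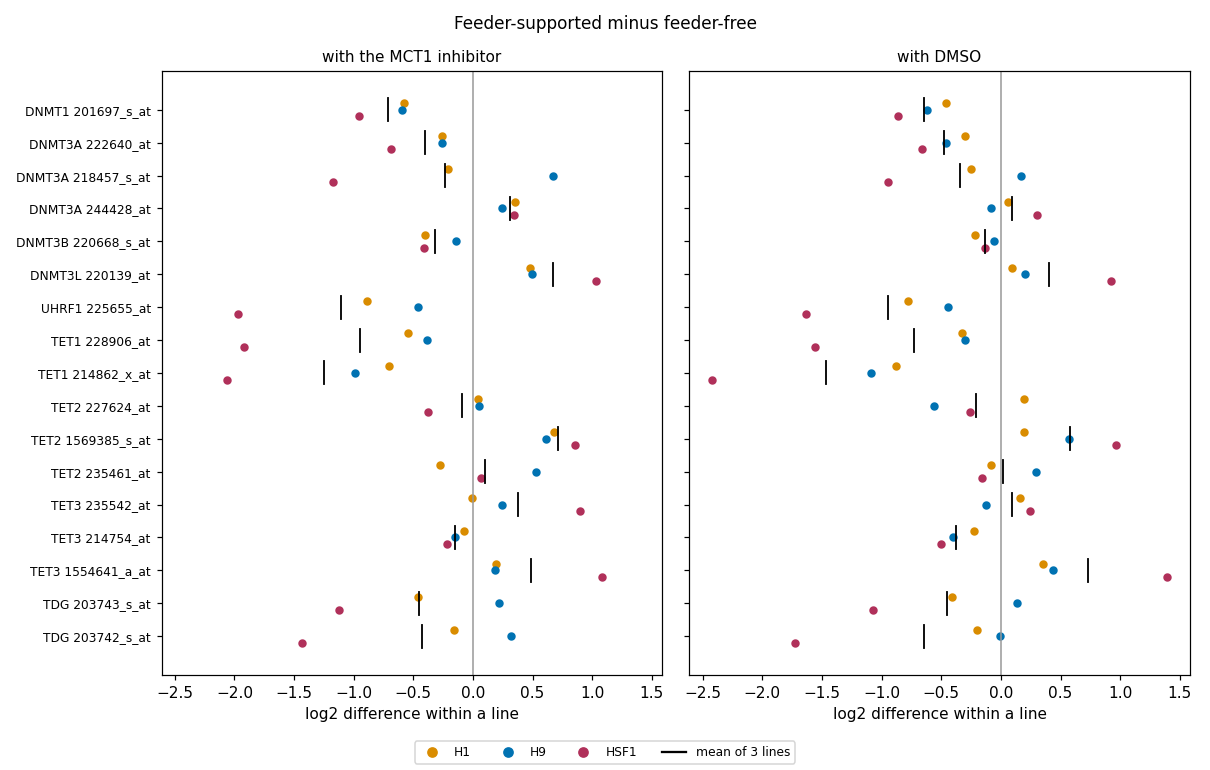
Difference of log2 values, feeder-supported minus feeder-free (horizontal axis), for the 17 probe sets within each line, with the inhibitor on the left and DMSO on the right; points are lines and bars their mean. HSF1 has the lowest differences in UHRF1 (-1.97 with the inhibitor, -1.63 with DMSO) and in both TET1 probe sets.

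Several measures moved with culture system beside these enzymes. The mean of the 20 fibroblast markers was 8.23 to 9.19 on feeder-supported and 7.05 to 8.13 on feeder-free arrays of the same experiment, and of 19 tested markers 7 were higher and 3 lower with the inhibitor, and 9 higher and 0 lower with DMSO. The mean of 17 S phase genes was 9.59 to 10.37 on feeder-supported and 10.52 to 10.77 on feeder-free arrays. Of these genes 10 were lower with DMSO and 10 with the inhibitor. Over all probe sets 23.8% were lower and 15.6% higher with DMSO, and 26.6% and 20.2% with the inhibitor. Above a mean of 9 the lower shares were 32.1% with DMSO and 38.9% with the inhibitor. Fewer stem cells and less RNA per stem cell cannot be told apart, nor can either be told apart from mouse feeder RNA that probes may bind. After quantile normalization, which gives every array the same spread, 1 of 15 probe sets was called with DMSO (TET1 214862_x_at, -1.24, adjusted p = 0.0437) and 3 with the inhibitor (UHRF1, -0.67, and TET1 228906_at, -0.53, TET3 235542_at, 0.83). With the ACTB difference as a covariate none was called in either comparison, and UHRF1 then differed by -0.43 with DMSO (adjusted p = 0.553). No enzyme was called with DMSO when H9 was left out, or with the inhibitor when H1 was left out. Calls over all 39859 probe sets fell too. Leaving out 1 line gave 1874 to 13312 with DMSO, against 15716 with all lines, and 2531 to 14072 with the inhibitor, against 18660. Without the 2 feeder-supported HSF1 arrays UHRF1 differed by -0.68 and DNMT1 by -0.56 with DMSO (adjusted p = 0.0066 and 0.00262).

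The second comparison asks whether blocking MCT1 alters the enzymes. None of the 15 probe sets was called for the inhibitor in the mean of both culture systems, in feeder-supported cells or in feeder-free cells. Over all probe sets 0.266% were called in the mean (0.196% higher, 0.0702% lower), 0.00251% in feeder-supported cells and 0.479% in feeder-free cells (0.331% higher, 0.148% lower). At an unadjusted p under 0.05 there were 3, 1 and 2 of the 15 probe sets in these comparisons, against 7.38%, 1.62% and 7.17% of all probe sets. The difference of the inhibitor effect between culture systems was called for 0% of all probe sets and for no enzyme; 2.02% of all probe sets and no enzyme had an unadjusted p under 0.05.

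TET3 had the lowest p of the enzymes in the mean and in feeder-free cells, and DNMT3B in feeder-supported cells (-0.28, SE 0.11, adjusted p = 1.0, lower in 3 of 3 lines). The leading TET3 probe set 235542_at measured 9.28, 9.02 and 9.44 in feeder-free cells with the inhibitor, against 9.65, 10.11 and 10.05 with DMSO, lower in 3 of 3 lines and with no overlap. The difference was -0.69 (SE 0.24, adjusted p = 0.407). In feeder-supported cells it measured 9.27, 9.26 and 10.34 with the inhibitor, against 9.81, 9.98 and 10.29 with DMSO, lower in H1 and H9 but not in HSF1. Over both culture systems TET3 235542_at was lower in 5 of 6 pairs (-0.55, SE 0.17, adjusted p = 0.330) and TET3 214754_at in 6 of 6 (-0.31, SE 0.11, adjusted p = 0.477). The third TET3 probe set differed by -0.09. With array weights, which give less weight to arrays that deviate, TET3 235542_at passed the threshold in the mean (-0.62, adjusted p = 0.00239) and in feeder-free cells (-0.62, adjusted p = 0.00426). It also passed without the 2 feeder-supported HSF1 arrays (-0.66, adjusted p = 0.0114, and -0.69, adjusted p = 0.0165). Both fits called more of the whole array. With array weights 11% of all probe sets were called in the mean and 12.9% in feeder-free cells, and without those arrays 4.66% and 6.48%.

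Neither de novo nor maintenance enzymes passed the threshold for the inhibitor. DNMT3A 218457_s_at was lower in 5 of 6 pairs, by -0.40 in the mean (SE 0.22, adjusted p = 0.821). In feeder-free cells it measured 9.39, 9.37 and 9.70 with the inhibitor, against 9.91, 9.78 and 10.15 with DMSO, with no overlap (-0.46, SE 0.32, adjusted p = 0.995). DNMT3B was lower in 5 of 6 pairs, by -0.19 in the mean (SE 0.08, adjusted p = 0.579). DNMT3A 222640_at was lower in 6 of 6 pairs, by -0.19 (SE 0.12, adjusted p = 0.876). DNMT1 differed by -0.04 (SE 0.12) and UHRF1 by -0.09 (SE 0.22), with UHRF1 higher in 3 of 6 pairs. TET1 228906_at differed by 0.19 (SE 0.22) but TET1 214862_x_at by -0.28 (SE 0.23), in opposite directions. TDG 203743_s_at was lower in 6 of 6 pairs, by -0.15 (SE 0.18). A p-value that misses the threshold does not show that levels were equal.

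**Figure D3:**
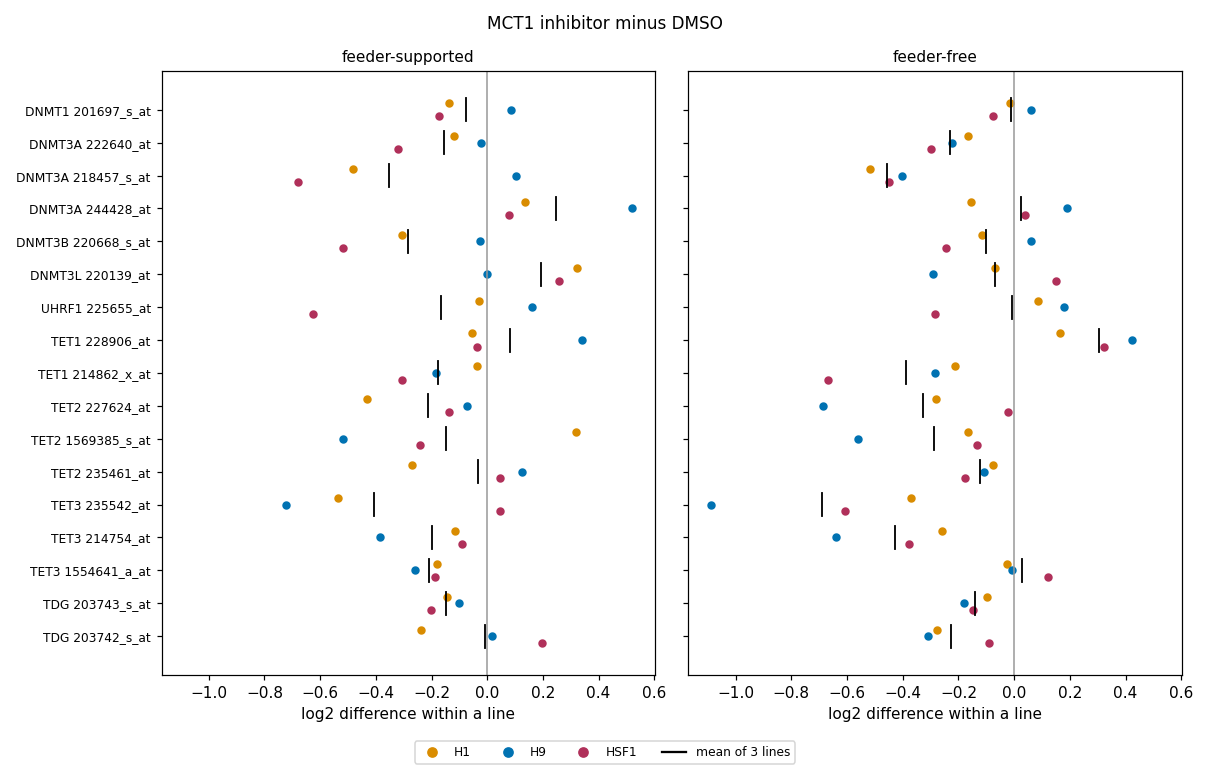
Difference of log2 values, MCT1 inhibitor minus DMSO (horizontal axis), for the 17 probe sets within each line, feeder-supported cells on the left and feeder-free cells on the right; points are lines and bars their mean. Of 102 points 88 lie within 0.5 of 0, and TET3 235542_at in feeder-free H9 reaches -1.09.

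The third comparison asks what fibroblast-conditioned medium does to the enzymes in feeder-free cells. In HSF1, UHRF1 and 2 probe sets of DNMT3A were lower in conditioned medium. These 3 of 15 probe sets were the calls, against 11.6% of all probe sets, 6.71% lower and 4.92% higher. UHRF1 measured 9.91, 9.87 and 9.78 in conditioned medium, against 10.28, 10.18 and 10.30 in unconditioned medium. The groups did not overlap and the fall was 1.32-fold (-0.40, SE 0.08, adjusted p = 0.00387). UHRF1 kept its call in all 23 alternative fits, with adjusted p of 0.000470 to 0.0253.

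DNMT3A 222640_at measured 10.80, 10.75 and 10.83 in conditioned medium, against 11.15, 11.02 and 11.01 in unconditioned medium (-0.27, SE 0.06, adjusted p = 0.00968). DNMT3A 218457_s_at measured 9.30, 9.09 and 9.11 in conditioned medium, against 10.06, 10.04 and 9.64 in unconditioned medium (-0.75, SE 0.18, adjusted p = 0.0162). Neither probe set overlapped between media, while the third DNMT3A probe set differed by -0.04. Leaving out HSF1 replicate 1 of unconditioned medium ended both DNMT3A calls, at -0.22 (adjusted p = 0.0684) for 222640_at and -0.68 (adjusted p = 0.0805) for 218457_s_at. The ACTB difference was 1.67 to 1.84 in conditioned and 1.52 to 1.63 in unconditioned HSF1 arrays, and with it as a covariate both DNMT3A probe sets and UHRF1 kept their calls.

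TET1 in HSF1 was 0.22 higher in conditioned medium (228906_at, SE 0.08, adjusted p = 0.0925), with no overlap between media. DNMT1 differed by -0.02, DNMT3B by 0.02 and TDG 203743_s_at by -0.05, each with an SE under 0.1. The other TDG probe set, 203742_s_at, differed by -0.46 (SE 0.19, adjusted p = 0.151), with overlapping groups. DNMT3L was 0.27 higher (SE 0.12, adjusted p = 0.177).

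In H9, conditioned medium gave 1 call of 15, for TET2 227624_at, against 10.4% of all probe sets, 7.71% lower and 2.69% higher. TET2 measured 6.07, 6.11 and 5.75 in conditioned medium, against 6.09, 6.80 and 6.81 in unconditioned medium (-0.59, SE 0.16, adjusted p = 0.0311). Both high TET2 values came from the arrays with ACTB differences of 3.25 and 2.89. Without these 2 arrays the TET2 difference was -0.12 (adjusted p = 0.814), and with the ACTB covariate it was -0.33 (adjusted p = 0.146). DNMT3A 222640_at measured 11.21, 11.07 and 11.18 in conditioned medium, against 11.38, 11.33 and 11.35 in unconditioned medium. These groups did not overlap, and the difference of -0.20 lay just outside the threshold (SE 0.06, adjusted p = 0.0513). UHRF1 in H9 differed by -0.12 (SE 0.08, adjusted p = 0.319).

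**Figure D4:**
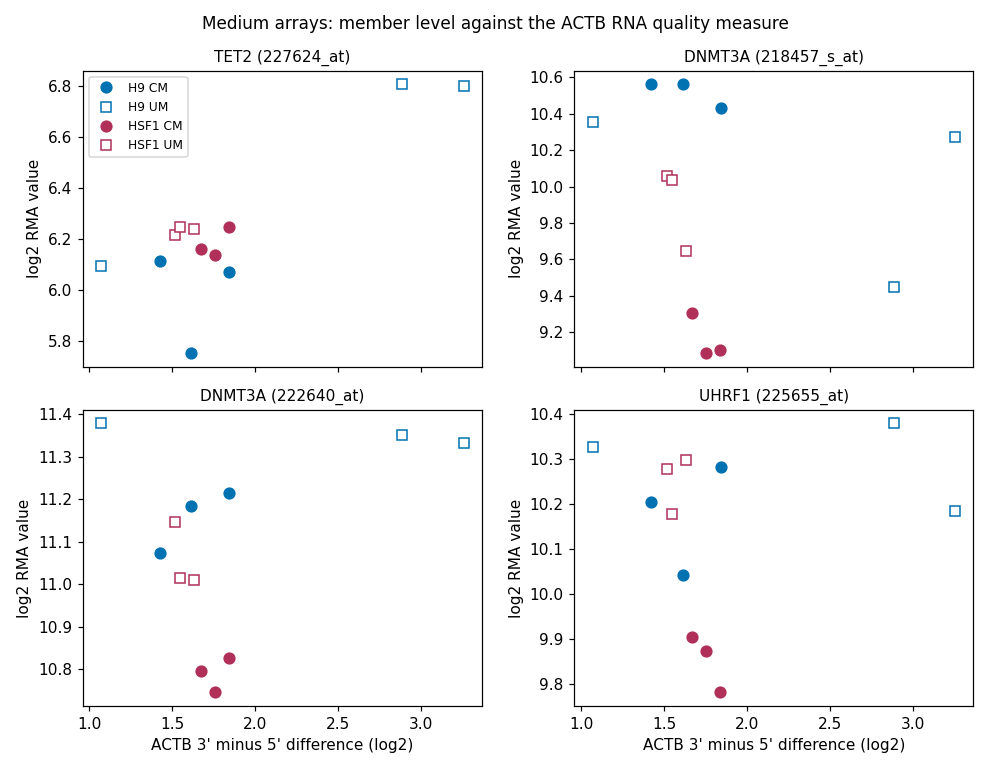
Log2 RMA value (vertical axis) of 4 probe sets on the 12 medium arrays against the ACTB 3′ minus 5′ difference in log2 units (horizontal axis); filled circles are conditioned and open squares unconditioned medium, blue H9 and red HSF1. Both H9 arrays above 2.5 on the horizontal axis carry the 2 highest TET2 values, 6.80 and 6.81, and HSF1 conditioned arrays lie below HSF1 unconditioned arrays in UHRF1 and in both DNMT3A panels.

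The difference of the medium effect between lines, HSF1 minus H9, was called for 1 of 15 probe sets, against 4.71% of all probe sets, 1.82% below 0 and 2.89% above 0. This was DNMT3A 218457_s_at (-1.24, SE 0.26, adjusted p = 0.0186). In H9 it measured 10.43, 10.56 and 10.56 in conditioned medium, against 10.35, 10.27 and 9.45 in unconditioned medium, the direction opposite to HSF1. The leading DNMT3A probe set gave a difference of -0.07 (SE 0.09, adjusted p = 0.698), so the probe sets of the gene disagreed. For UHRF1 the difference was -0.28 (SE 0.11, adjusted p = 0.157), and an effect called in HSF1 but not in H9 was therefore not shown to differ between them.

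Between the lines themselves in unconditioned medium, HSF1 was lower than H9 in TDG, DNMT3B and DNMT3A and higher in 1 TET1 probe set, 4 of 15 called, against 19.1% of all probe sets, 10.6% lower and 8.48% higher. TDG 203743_s_at measured 10.68, 10.67 and 10.64 in HSF1, against 11.18, 11.44 and 11.44 in H9, a 1.62-fold difference (-0.70, SE 0.09, adjusted p = 0.00014). DNMT3B measured 13.21, 13.10 and 13.09 in HSF1, against 13.54, 13.53 and 13.68 in H9 (-0.45, SE 0.07, adjusted p = 0.000665). No value overlapped for either gene, and both kept their calls in all 22 alternative fits. DNMT3A 222640_at was lower by 0.30 on average (SE 0.06, adjusted p = 0.00422) and TET1 214862_x_at was higher by 0.23 (SE 0.08, adjusted p = 0.047), the TET1 call being lost in 14 of 20 alternatives.

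The inhibitor experiment gives the same line difference from 1 array per line, with no test. TDG 203743_s_at in HSF1 minus H9 was -0.19 with the inhibitor and -0.22 with DMSO in feeder-free cells, beside -0.60 in conditioned and -0.70 in unconditioned medium. DNMT3B gave -0.41 with the inhibitor and -0.10 with DMSO, against -0.55 in conditioned and -0.45 in unconditioned medium. All of these differences are below 0. Both genes are shown here because HSF1 was called lower in unconditioned medium, so the unconditioned values add nothing to those calls. In feeder-supported cells TDG 203743_s_at measured 9.83 in HSF1 against 11.35 in H9 with the inhibitor, and 10.03 in HSF1 against 11.46 in H9 with DMSO. These HSF1 values come from the 2 feeder-supported HSF1 arrays that stood apart from the other 22. The second TDG probe set, 203742_s_at, differed by -0.67 in conditioned and -0.20 in unconditioned medium (adjusted p = 0.541 for the unconditioned value), but by 0.27 with the inhibitor and 0.04 with DMSO in feeder-free cells.

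Genes of the same pathway were taken from 8 lists of 93 genes, with the leading probe set of each gene. With DMSO, feeder-supported cells were lower in 3 of 7 maintenance partners and higher in 0: CDCA7L (-0.88), LIG1 (-0.91), the ligase of lagging strands, and UHRF2 (-1.02), the paralogue of UHRF1. Of 7 readers of methylated CG, 2 were lower, MBD3 (-0.60) and ZBTB33 (-1.18). Of 11 base excision repair and GADD45 genes 6 were lower and 2 higher, among them PARP1 (-0.51), APEX1 (-0.53) and GADD45B (0.71). Of 12 methyl donor genes 4 were lower, including AHCY (-0.71), which clears S-adenosylhomocysteine, and MTRR (-0.98), and 1 was higher, NNMT (1.12), which consumes the methyl donor. For 2-oxoglutarate supply IDH1 (-0.54) was the 1 call of 9, and of 10 repressor partners 5 were lower and 1 higher, with KDM1B (-1.27), EHMT2 (-1.31) and OGT (-0.76) the lowest p. Over the array 23.8% were lower and 15.6% higher, but the shares depend on level and each gene was read by its brightest probe set. With a mean above 9, 32.1% were lower and 3.72% higher, and from 7 to 9, 34.9% and 8.1%. The lists were not tested against these shares. NNMT kept its call in every alternative fit, whereas EHMT2 differed by -0.11 and MBD3 by -0.02 as the mean of all probe sets of the gene.

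In conditioned medium 13 of 78 related genes tested were lower and 2 higher in H9, and 9 were lower and 4 higher in HSF1. The array shares were 7.71% lower and 2.69% higher in H9, and 6.71% lower and 4.92% higher in HSF1. Above a mean of 9 they were 9.69% lower and 4.16% higher in H9, and 11.1% lower and 7.57% higher in HSF1. Replicates 2 and 3 of H9 in unconditioned medium had ACTB differences of 3.25 and 2.89. With the ACTB covariate 4.58% of all probe sets were called in H9, against 10.4% without it. GADD45G, a stress gene linked to demethylation, rose in both lines. It measured 7.11, 7.20 and 7.37 in conditioned medium, against 6.37, 6.29 and 6.57 in unconditioned medium in H9 (0.82, SE 0.10, adjusted p = 0.000285). In HSF1 GADD45G measured 7.04, 7.24 and 7.08 in conditioned medium, against 6.06, 6.19 and 6.28 in unconditioned medium (0.94, SE 0.10, adjusted p = 4.18e-05). Of the S phase list, 4 of 17 genes were lower in HSF1, RRM2 (-0.40), CDC6 (-0.40), MCM5 (-0.21) and GINS2 (-0.23), beside the lower UHRF1. The mean of that list was 10.52 to 10.59 in conditioned and 10.65 to 10.68 in unconditioned HSF1 arrays. The part of cell cycle in the UHRF1 difference was not tested.

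Genes most like 3 members over the 24 arrays were described by Pearson's r among 16507 other genes. UHRF1 went with PRPF4 (0.969), EIF2B1 (0.968), ZNF326 (0.963) and TRMT6 (0.962). TET1 went with NEMP1 (0.977), ELAPOR2 (0.976), MMD (0.976) and RHOT1 (0.976). DNMT3B had looser neighbours over the 24 arrays, SLC20A1 (0.819), G3BP1 (0.814), TMED2 (0.805) and KDM6A (0.804). The arrays share lines, culture systems and the feeder-supported HSF1 pair, and over the 18 feeder-free arrays TET1 and RHOT1 still correlated at 0.934 but TET1 and MMD at 0.791. On those 18 arrays the neighbours named reached 0.816 to 0.878 for DNMT3B and 0.837 to 0.874 for UHRF1, so DNMT3B was not looser there.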

How the data were processed

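RNA of 24 cultures was measured on single-colour arrays. The authors deposited 1 table of log2 values, made with RMA per the submitters' processing notes; the RMA version is not given in the sources used here, nor is which arrays were normalised jointly. RMA brings arrays to a common scale, so differences are relative to the rest of the array. Of 54675 probe sets, 41097 carried 1 gene symbol in the platform annotation, 1801 several and 11777 none. Probe sets with a mean above 5 over the 12 arrays of an experiment were tested, 39859 in the inhibitor and 38595 in the medium experiment, without the 62 control probe sets. Tests used the limma package, version 3.58.1 (R 4.3.3), with lmFit, eBayes with an intensity trend, and Benjamini-Hochberg adjustment. Line was a block in the inhibitor experiment, where a replicate number is a line (same-line deviations correlated at 0.677 to 0.905 between treatments, but at 0.478, 0.145 and 0.0488 between culture systems with DMSO). The fits were tested on simulated data. No 2 arrays were identical. All 9 genes are named, with up to 3 called genes per list and comparison by lowest p and the 4 most correlated genes for 3 members. Members and lists were chosen with earlier results of these data known. The fit without H9 unconditioned replicates 2 and 3 was added after seeing the data. Precision is limited by the number of arrays, which have no read depth.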

Additional observations from a re-analysis of the deposited data

Results flagged for a closer look

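The effect of conditioned medium differed between lines for DNMT3A 218457_s_at, by -1.24 for HSF1 minus H9 (adjusted p = 0.0186, from the interaction term of the limma fit). The call was lost with the ACTB covariate (-1.05, adjusted p = 0.0547) and without HSF1 unconditioned replicate 1 (-1.17, adjusted p = 0.0642), HSF1 unconditioned replicate 2 (-1.18, adjusted p = 0.0553) or HSF1 conditioned replicate 2 (-1.20, adjusted p = 0.0516). It was -0.91 (adjusted p = 0.0181) without H9 unconditioned replicates 2 and 3.

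The same test separated the lines for DAZL, a germ cell gene, by 1.90 (adjusted p = 0.0014), in all 23 alternative fits, which gave 1.59 to 2.09. It also separated them for ZBTB4, a reader of methylated CG, by 0.56 (adjusted p = 0.0169). ZBTB4 lost the call in 5 of 23 alternatives, among them the fit without H9 unconditioned replicates 2 and 3.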

How the results depend on the processing

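Of 165 counts of called enzyme probe sets under alternative settings, 128 were equal or within 1.5 times and 37 moved. The 20 called single differences kept their direction in all 344 alternatives and lost the call in 81. The culture comparison with DMSO gave 5 calls, against 1 after quantile normalization, 3 with 1 leading probe set per gene, 0 with the ACTB covariate, 1 with no replicate block, and 0 to 4 on leaving out 1 line (0 without H9). With the inhibitor it gave 6, against 3 after quantile normalization, 0 with the ACTB covariate, 3 with no replicate block, and 0 to 6 on leaving out 1 line (0 without H1). Over all probe sets the DMSO culture calls were 39.4%, 21.1% after quantile normalization, 1.84% with the ACTB covariate and 12% with no replicate block. With the inhibitor these shares were 46.8%, 27.7%, 5.16% and 21.7%. Leaving out 1 line gave 1874 to 13312 calls over all probe sets with DMSO, against 15716 with all lines. With the inhibitor it gave 2531 to 14072, against 18660. The inhibitor mean gave 0 calls, against 4 with array weights, 1 without the 2 feeder-supported HSF1 arrays and 0 to 1 on leaving out 1 line. Over all probe sets the mean gave 0.266%, 11% with array weights and 4.66% without those arrays. In feeder-free cells the inhibitor gave 0, against 3 with array weights and 1 without those arrays. Over all probe sets these shares were 0.479%, 12.9% and 6.48%. Conditioned medium in H9 gave 1 call, against 2 after quantile normalization, a common median or leading probe sets, 3 with array weights, 0 with the ACTB covariate, the replicate block or without H9 unconditioned replicates 2 and 3, and 0 to 4 on leaving out 1 array. Over all probe sets 10.4% were called in H9, 8.91% after quantile normalization and 15.6% with array weights. With the ACTB covariate 4.58% were called, and with the replicate block 5.69%. In HSF1 conditioned medium gave 3, and 1 to 4 on leaving out 1 array (1 without unconditioned replicate 1). The difference between lines gave 1, against 0 with leading probe sets or the ACTB covariate, 2 with array weights, and 0 to 3 on leaving out 1 array. Over all probe sets 4.71% were called for that difference, 11.5% with array weights and 2.38% with the ACTB covariate. HSF1 minus H9 gave 4, and 3 to 5 on leaving out 1 array; it could not be fitted with the replicate block, which absorbs the line. In the medium experiment same-numbered arrays deviated together at r = -0.322 to 0.107, so numbers do not pair them. Of 1632 alternatives of 89 related-gene calls, 1631 kept the direction and 375 lost the call; CXXC4 in HSF1 minus H9 was -0.0082 as the mean of its probe sets. Beyond the constructions named, the causes were not tested.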

Other observations

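Germline genes whose promoters are methylated in somatic cells were listed beside the enzymes, and 7 of 15 passed the filter in the inhibitor experiment. CTCFL, the testis paralogue of CTCF, measured 8.90, 8.75 and 9.84 in feeder-free H1, H9 and HSF1 with the MCT1 inhibitor, against 4.51 to 6.06 over the same lines with DMSO. CTCFL rose by 3.64 (SE 0.28, adjusted p = 0.000375) and kept the call in all 14 alternative fits. Its feeder-free values with the inhibitor, the high side of this comparison, carried CTCFL past the filter. In feeder-supported cells CTCFL measured 5.07, 4.55 and 4.76 with the inhibitor, against 4.39, 4.21 and 4.66 with DMSO, below the array medians (0.37, adjusted p = 1.0). All DMSO values also lie below those medians, so no exact fold follows. The difference between culture systems was -3.27 (SE 0.39, adjusted p = 0.0513), outside the threshold. No enzyme probe set was called in these inhibitor comparisons.

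DAZL, a germ cell RNA-binding protein, measured 6.27, 6.93 and 6.43 in H9 in conditioned medium, against 7.98, 8.46 and 8.44 in unconditioned medium, a fall of 1.75 (SE 0.17, adjusted p = 3.1e-05). In HSF1 DAZL measured 8.02, 8.47 and 8.33 in conditioned medium, against 7.97, 8.09 and 8.33 in unconditioned medium (0.15, adjusted p = 0.650). DAZL was also lower in feeder-supported than in feeder-free cells with DMSO, at 5.38, 3.83 and 4.96 against 7.35, 6.22 and 7.72 (-2.37, adjusted p = 0.000529). Its levels on feeders lie below the array medians, so that difference gives no exact fold, and its feeder-free values carried it past the filter. The germline list did not move as 1: of 7 tested, 2 were lower and 2 higher on feeders with DMSO, and 3 and 3 with the inhibitor. TKTL1 was among those higher with DMSO (0.61, adjusted p = 0.0330). Over all probe sets 23.8% were lower and 15.6% higher with DMSO, and 26.6% and 20.2% with the inhibitor.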
